A study of Mus musculus with 24 samples.

Results

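Mouse epiblast stem cell (EpiSC) lines Wt1 and 129C1, both derived by the protocol described in the labels as original, were compared with each other. The comparison rests on 4 of the 24 arrays of the series, 2 of Wt1 and 2 of 129C1 grown without IWP2, chosen by their titles. The series also holds 129C1 treated with IWP2, an inhibitor of the acyltransferase Porcn that blocks Wnt secretion (2 arrays). It further holds lines 129Ba1, 129Ba2 and BNa17, established with a Wnt inhibitor (2 arrays each), mouse embryonic stem cell lines and epiblast or embryonic ectoderm from dissected embryos. Per the labels, all EpiSC and embryonic stem cell lines were kept undifferentiated on feeder layers, and the stem cells were separated from the feeders before RNA was taken. The labels give line, derivation method and inhibitor, and no strain, sex or passage for these lines. Each line name stands for 1 derivation, so a difference between Wt1 and 129C1 is a difference between these 2 lines. Whether the 2 arrays of a line came from separate cultures is not given in the labels. The p-values therefore measure only the spread between replicate arrays, which may be technical. That spread was estimated over all 24 arrays of the series, embryo tissue and embryonic stem cells included, and not from the 4 arrays alone.

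EpiSCs are pluripotent cells taken from the epiblast after implantation, the tissue that forms all germ layers at gastrulation. They depend on Activin or Nodal and FGF signals rather than on LIF. In the embryo, Wnt signals from the posterior epiblast help to start the primitive streak, where cells switch on T, lose E-cadherin and move inward to form mesoderm and definitive endoderm. EpiSCs grown without Wnt inhibition can hold some of these streak genes at a low level. Interferon-stimulated genes are a separate set: interferons act through a Stat complex that holds Irf9 and binds a short DNA element in the promoters of antiviral genes.

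Levels are log2 processed signals relative to the 75th percentile of the array, so that 0 is the level of the probe at that percentile. The 75th percentile itself lay between 69.3 and 253 signal units over the 24 arrays, and the share of probes well above background between 36.7% and 53.2%. A difference is Wt1 minus 129C1, with its standard error from limma fitted to all 24 arrays as 12 groups. A gene was called when its Benjamini-Hochberg adjusted p was below 0.05 and its difference at least 2-fold. Of 15090 genes tested, 1593 were called (10.6%), of which 866 were higher in Wt1 (5.74% of genes) and 727 lower (4.82%). These shares over all genes are the background for every count of list members below. With normexp background correction of the median signals instead, where an offset of 50 signal units was added to every spot, 768 were called. The median difference over all genes was -0.055. At 8-fold or more there were 157 genes higher in Wt1 and 57 lower. Over all genes tested, the 2 arrays of Wt1 correlated at r = 0.984 and those of 129C1 at 0.992, against 0.956 to 0.959 between the lines.

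The arrays of Wt1 lay on 1 slide together with IWP2-treated 129C1, and those of 129C1 on another slide together with 129Ba1, 129Ba2 and BNa17, so line and slide cannot be told apart in Wt1 minus 129C1. A difference within the slide of each line is therefore given beside the results. Wt1 minus IWP2-treated 129C1, on the slide of Wt1, called 2097 genes (13.9%), with 8.01% of genes higher in Wt1 and 5.88% lower; it differs from the comparison of the untreated lines by the treatment too. 129C1 minus the mean of 129Ba1, 129Ba2 and BNa17, on the slide of 129C1, called 1689 genes (11.2%), with 5.34% higher in 129C1 and 5.85% lower. Both share arrays with Wt1 minus 129C1, so the values are set side by side and not correlated. The same rule called 180 genes between 129Ba1 and 129Ba2 (1.19%), 449 between BNa17 and the 129Ba lines (2.98%), and 80 between the embryonic stem cell lines R1 and J1 (0.53%), the latter on separate slides.

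**Figure D1:**
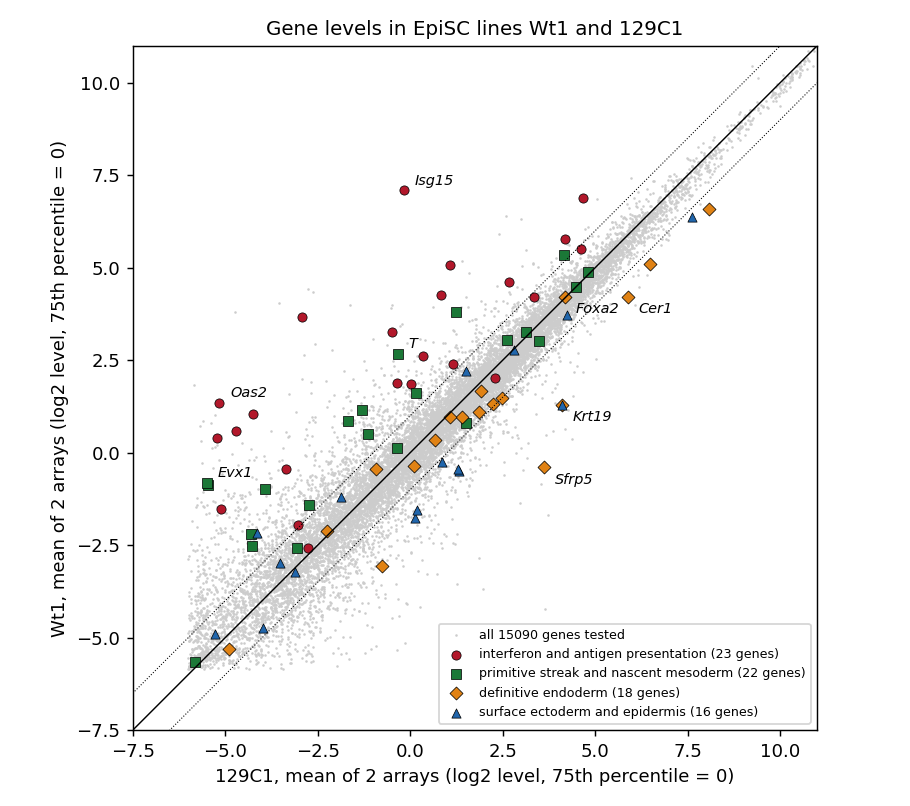
Mean log2 level of each gene in Wt1 (vertical axis, 2 arrays) against 129C1 (horizontal axis, 2 arrays), with 0 at the 75th percentile of an array; grey points are all 15090 genes tested, coloured symbols are members of 4 gene lists, the solid line marks equal levels and the dotted lines a 2-fold difference. Most interferon genes lie above the diagonal, with Isg15 farthest from it, while Foxa2 lies on it and Sfrp5 and Krt19 below it.

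Markers of the cell types were read first. All 8 EpiSC markers, among them Pou5f1, Sox2, Fgf5 and Otx2, were well above background on all 4 arrays. Of the genes given as marks of these lines, T, the T-box factor of the streak and notochord, was well above background on all 4 arrays and Foxa2, the forkhead factor of endoderm and axial mesoderm, likewise. Mixl1, a homeobox gene of the streak, was well above background on 1 of 2 Wt1 arrays and on neither 129C1 array. All 4 trophoblast markers (Cdx2, Elf5, Esx1, Tpbpa) were not well above background on any of the 4 arrays, and the same held for 2 of 5 visceral endoderm markers (Afp, Ttr) and 2 of 4 markers of endothelium and blood (Cdh5, Tie1). Of the other visceral endoderm markers, Amn was well above background on all 4 arrays, Apoa1 on both 129C1 arrays and 1 Wt1 array, and Cubn on 1 129C1 array. The blood genes Gata1 and Hbb-bh1 were above background on all 4 arrays and called, at -1.57 ± 0.41 and 2.35 ± 0.72, and each lost its call when some 1 array was left out. All 8 feeder fibroblast markers were well above background on all 4 arrays of these feeder-grown lines.

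T read 2.86 and 2.50 in Wt1 and 0.48 and -1.15 in 129C1. Both Wt1 arrays lay above both 129C1 arrays, and the 129C1 arrays stood apart from each other. The difference was 3.02 ± 0.65 (adjusted p = 0.00434, limma), and without replicate 2 of 129C1 it was 2.20 (adjusted p = 0.0760), so the call rests on that array. Foxa2 read 3.78 and 4.65 in Wt1 and 4.37 and 3.98 in 129C1, and the arrays of the lines overlapped. Its difference was 0.040 ± 0.67 (adjusted p = 0.975), and its sign turned to -0.39 without replicate 2 of Wt1. Mixl1 read -3.43 and -1.63 in Wt1 and -3.72 and -4.82 in 129C1, near background, with a difference of 1.74 ± 1.01 that did not pass (adjusted p = 0.262). Thus T was called between the lines while Foxa2 and Mixl1 were not, and whether T differs more than Foxa2 was not tested.

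Genes induced by interferon and genes of antigen presentation formed the list with the largest share of called members. Of 23 tested members, 18 were higher in Wt1 and 0 lower, with a median difference of 2.27 beside -0.055 over all genes; 17 of the 18 stayed called when any 1 of the 4 arrays was left out, and Tap2, a peptide transporter subunit, fell below 2-fold without replicate 1 of Wt1 (0.96). The median level of the members was 2.69 and 2.13 on the Wt1 arrays, -0.14 and -0.20 on the 129C1 arrays and -0.52 and -0.54 on the arrays of IWP2-treated 129C1. Among all 24 arrays, the 2 of Wt1 were the highest for this list. Beside its slide mate, Wt1 had 19 members higher than IWP2-treated 129C1 and 0 lower; on the slide of 129C1, 2 were higher in 129C1 than in the Wnt inhibitor lines and 7 lower.

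The promoters of some of these genes are printed because the members were high together in 1 line. The 250 bases before the annotated start (RefSeq, GRCm38.p6) were searched on both strands for the core of the interferon-stimulated response element, written here as GAAA, any 2 bases and GAAA again, and matches may overlap. A window was at hand for 14 of the 18 members higher in Wt1, and 7 of these held the motif, against 936 of all 27025 genes with a window (3.46%). Counted by window, 978 of 32851 held it (2.98%). Of the 5 members not called, all with a window, 1 held it. A match is a match of letters and not a measured binding site. Of the 5 called members with more than 1 match, 4 are shown 5′ to 3′ on the strand of the gene, ending at the base before the start, with matches in capitals.
Isg15, chr4:156200819-156201068, minus strand: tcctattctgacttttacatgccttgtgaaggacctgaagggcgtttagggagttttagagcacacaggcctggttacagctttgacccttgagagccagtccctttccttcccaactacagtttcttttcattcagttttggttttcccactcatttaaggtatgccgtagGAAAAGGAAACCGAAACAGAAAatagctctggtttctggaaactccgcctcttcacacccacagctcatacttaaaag
Ifit1, chr19:34640639-34640888, plus strand: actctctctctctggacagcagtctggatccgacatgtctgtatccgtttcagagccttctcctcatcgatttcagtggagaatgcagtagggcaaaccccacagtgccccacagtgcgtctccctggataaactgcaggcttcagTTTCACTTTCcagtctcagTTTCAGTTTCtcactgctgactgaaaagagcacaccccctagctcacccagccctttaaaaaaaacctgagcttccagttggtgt
Bst2, chr8:71537473-71537722, minus strand: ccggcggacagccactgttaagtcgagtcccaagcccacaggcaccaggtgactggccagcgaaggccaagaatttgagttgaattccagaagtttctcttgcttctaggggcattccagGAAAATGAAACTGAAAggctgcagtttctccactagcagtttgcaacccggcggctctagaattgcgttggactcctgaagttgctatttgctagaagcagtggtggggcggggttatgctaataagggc
Oas1a, chr5:120907526-120907775, minus strand: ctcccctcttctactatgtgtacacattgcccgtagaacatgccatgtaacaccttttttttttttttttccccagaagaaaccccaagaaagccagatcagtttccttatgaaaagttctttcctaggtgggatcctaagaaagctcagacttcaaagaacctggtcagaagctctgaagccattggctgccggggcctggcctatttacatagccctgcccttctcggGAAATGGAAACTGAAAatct
Isg15 held 3 overlapping matches whose first bases lie 78, 72 and 66 bases before the start. Ifit1 held 2 separate matches on the opposite strand, at 104 and 85 bases, and Bst2 and Oas1a held 2 overlapping matches each.

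Isg15, a ubiquitin-like protein joined to other proteins after interferon, read 7.63 and 6.56 in Wt1 and -0.14 and -0.20 in 129C1. Both Wt1 arrays stood far above both 129C1 arrays, and the difference of 7.27 ± 0.39 (adjusted p = 1.40e-08, limma) was the largest of any called gene measured above background on both arrays of both lines. Usp18, the protease that removes Isg15 from proteins and damps the interferon receptor, read 4.24 and 3.11 in Wt1 and -2.58 and -3.27 in 129C1, a difference of 6.60 ± 0.66 (adjusted p = 6.22e-06). Rtp4, an interferon-induced transporter protein, read 4.67 and 4.01 in Wt1 and -2.71 and -2.54 in 129C1, a difference of 6.96 ± 0.39. In each of these genes the lines did not overlap.

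Several antiviral effectors were higher in Wt1. Ifit1, which binds foreign RNA ends, read 0.14 and 0.65 in Wt1 and -5.90 and -4.54 in 129C1, with neither 129C1 array well above background, and was at least 22.1-fold higher in Wt1. Such a bound divides the mean of the brighter line by a floor for the dimmer line. On each array the floor is the lowest signal that counted as well above background, or the gene's value where that is higher. By the same bound Ifit3 was at least 34.8-fold higher, and Oas2, an enzyme that makes an activator of RNA decay, at least 43.0-fold higher. Bst2, the membrane tether of budding viruses, was above background in both lines, at 7.29 and 6.48 in Wt1 and 4.74 and 4.62 in 129C1, and differed by 2.21 ± 0.21 (adjusted p = 3.52e-06). Ifitm3, which blocks viral entry, read 6.51 and 6.28 in Wt1 and 2.59 and 2.62 in 129C1, a difference of 3.79 ± 0.22.

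Sensors and regulators of this response differed in part. Stat2, a subunit of the interferon-activated Stat complex, was not called (-0.27 ± 0.28, adjusted p = 0.572), and Irf1, a transcription factor induced by interferon, passed the test but stayed below 2-fold (0.85 ± 0.15, adjusted p = 0.000813). Irf7, which drives interferon genes, was at least 25.2-fold higher in Wt1. Irf9, the DNA-binding subunit of that complex, read 1.77 and 1.96 in Wt1 and 0.027 and 0.0067 in 129C1, a difference of 1.85 ± 0.16 (adjusted p = 2.09e-06). Zbp1, a sensor of Z-form nucleic acids, read 3.22 and 2.05 in Wt1 and -2.79 and -2.94 in 129C1 and was 45.3-fold higher (adjusted p = 7.53e-08), and Gsdmd, the pore-forming protein of pyroptosis, differed by 5.61 ± 0.25. A second probe of Zbp1 gave a smaller difference, 2.98. Irgm1, an interferon-induced GTPase, read 4.09 and 3.89 in Wt1 and -0.48 and -0.49 in 129C1, a difference of 4.48 ± 0.28. On the slide of Wt1 the differences from IWP2-treated 129C1 were 6.63 for Isg15, 6.63 for Usp18, 5.56 for Gsdmd and 5.25 for Irgm1.

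Secreted inflammatory proteins were among the largest differences. Ccl5, a chemokine that draws T cells, read 4.04 and 4.82 in Wt1 and -2.93 and -2.59 in 129C1, a difference of 7.19 ± 0.58 (adjusted p = 9.43e-07). Ccl8, a related chemokine, differed by 4.43 ± 0.53, and Lcn2, which sequesters bacterial siderophores, by 4.89 ± 0.51. Neither 129C1 array was well above background for Saa3, an acute-phase protein, or Cfb, complement factor B, which were at least 218-fold and at least 27.5-fold higher in Wt1.

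Of 7 tested members of the list that serve class I antigen presentation, 5 were higher in Wt1 (B2m, H2-D1, Tap2, Psmb8 and Psmb9). H2-K1 and Tap1 were not called, at 0.89 ± 0.22 (adjusted p = 0.0105, below 2-fold) and 1.08 ± 0.42 (adjusted p = 0.0859). H2-D1, a class I heavy chain, read 4.64 and 4.61 in Wt1 and 2.74 and 2.63 in 129C1, a difference of 1.94 ± 0.25 (adjusted p = 6.57e-05). The class I genes H2-Q7 and H2-T23, of a list of strain-variable genes, differed by 1.59 ± 0.20 and 1.45 ± 0.19. Of 20 tested members of that list, 4 were higher in Wt1 and 3 lower, beside 5.74% and 4.82% of all genes. The labels give no strain for these lines, and the part of strain in these differences was not tested. Probes of the H2 family can bind near-identical paralogs, so the split between the H2 genes is uncertain. H2-Ab1, the beta chain of a class II molecule, read 0.48 and -0.77 in Wt1 and 3.11 and 3.21 in 129C1 and was lower in Wt1 by a difference of -3.31 ± 0.41 (adjusted p = 5.31e-05). Gbp2b, a guanylate-binding protein of the strain-variable list, was likewise lower in Wt1. Neither Wt1 array was well above background, and 129C1 was at least 4.71-fold higher. The difference of Gbp2b was -0.91 with normexp on the median signals, below 2-fold, and its call was lost there.

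**Figure D2:**
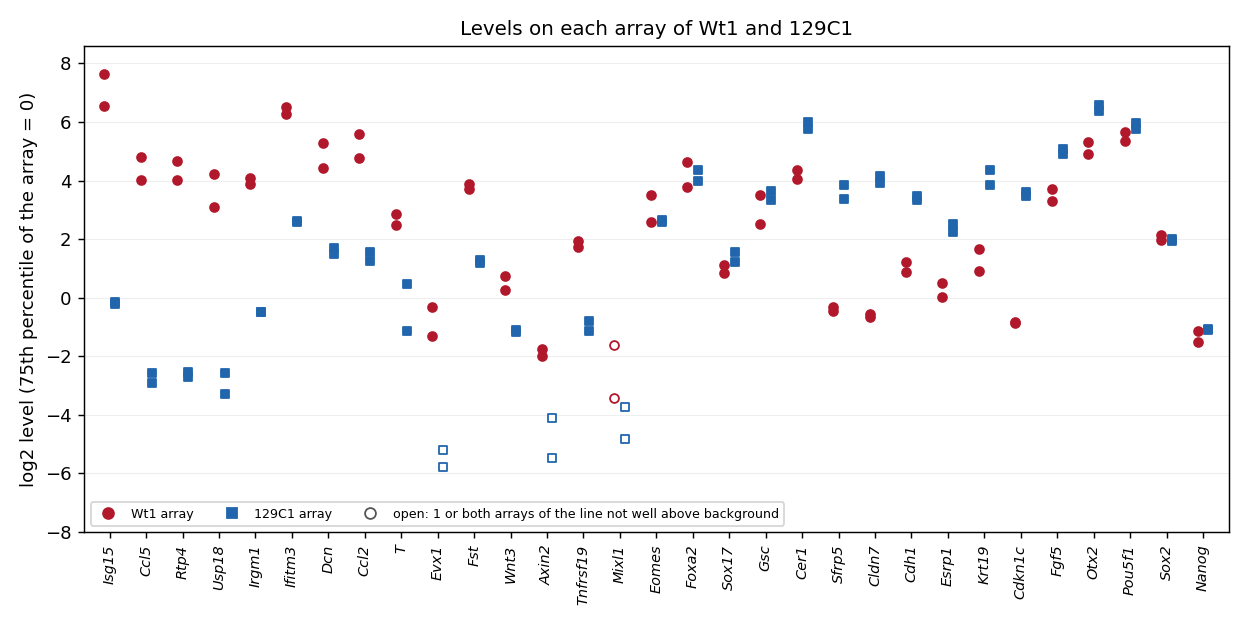
Log2 level (75th percentile of the array = 0) of 31 genes on each array of Wt1 (circles) and 129C1 (squares); open symbols mark a line in which 1 or both arrays were not well above background. The interferon and inflammatory genes at the left and the epithelial genes from Cldn7 to Krt19 show no overlap of the lines, while Foxa2, Sox2 and Nanog read close together.

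Many feeder fibroblast genes were also higher in Wt1. Of 30 tested members of the feeder list, 16 were higher in Wt1 and 1 lower, with a median difference of 1.20. Many of these calls depend on single arrays: without replicate 2 of Wt1 6 members were higher, without replicate 1 of 129C1 also 6 and without replicate 2 of 129C1 8. The summed linear level of the 30 members, in units of the 75th percentile, was 392 to 549 on the Wt1 arrays and 262 to 308 on the 129C1 arrays, and all 30 were well above background on all 4. Dcn, a collagen-binding proteoglycan that is also imprinted, read 4.43 and 5.28 in Wt1 and 1.71 and 1.49 in 129C1, a difference of 3.26 ± 0.36 (adjusted p = 1.54e-05). Ccl2, a monocyte chemokine, read 4.78 and 5.59 in Wt1 and 1.54 and 1.26 in 129C1, a difference of 3.78 ± 0.53. Serpinf1 and Igfbp4, secreted proteins of mesenchymal cells, differed by 2.16 ± 0.29 and 1.88 ± 0.24. Tagln, a smooth muscle actin-binding protein, was the member lower in Wt1, by a difference of -1.12 ± 0.31, a call lost when any 1 of the 4 arrays was left out; it was chosen after its values were seen.

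The feeder and interferon lists were also summed in another line. In 129Ba1 the feeder list summed to 734 to 870.3, above both Wt1 arrays, and the interferon list to 106 to 117, beside 411 to 637 in Wt1 and 98.3 to 104 in 129C1. In these bulk samples a larger share of feeder cells and more RNA per cell cannot be told apart. The part of feeder RNA in the differences between Wt1 and 129C1, those of interferon and mesenchymal genes included, was not tested.

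**Figure D3:**
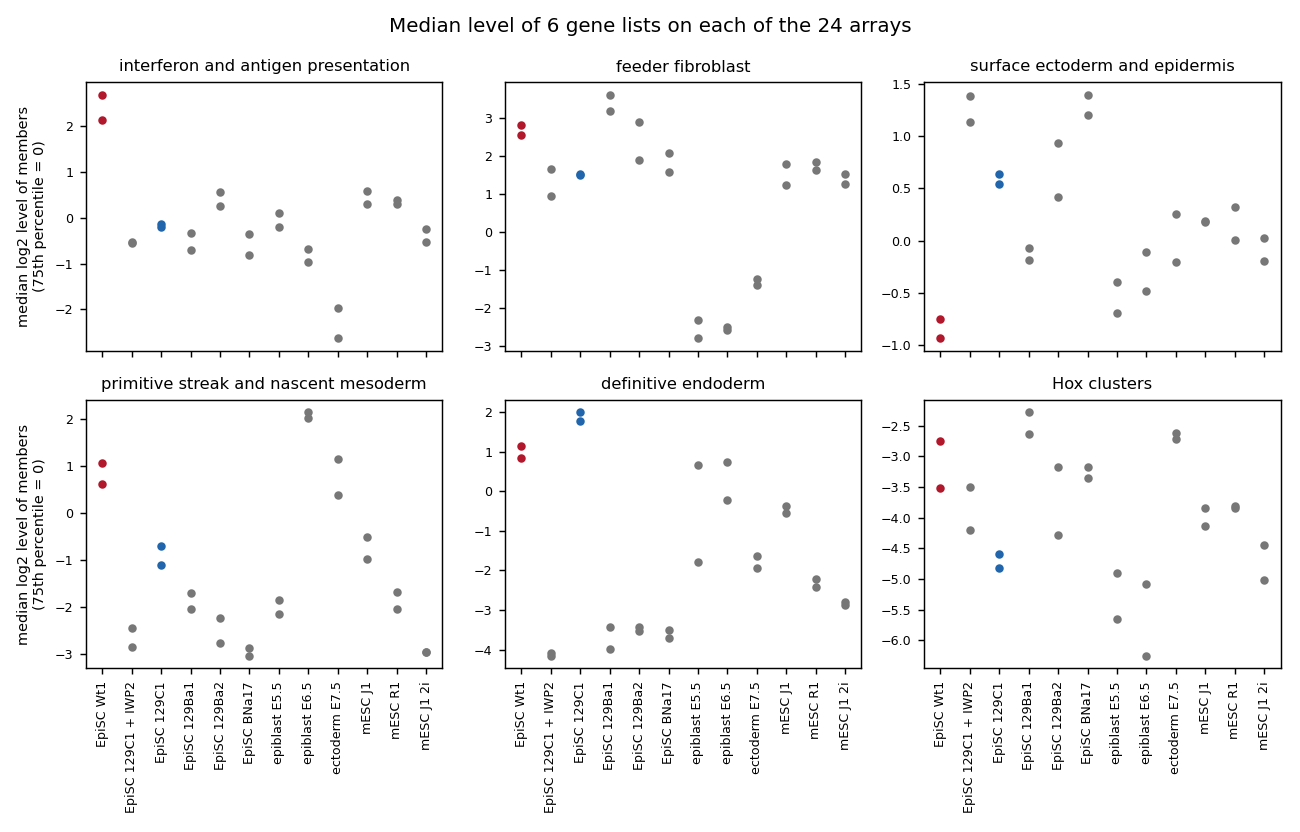
Median log2 level (75th percentile = 0) of the tested members of 6 gene lists on each of the 24 arrays, with Wt1 in red, untreated 129C1 in blue and the other groups in grey. Wt1 is highest of all groups for interferon genes and lowest for surface ectoderm genes, while for the endoderm list 129C1 and Wt1 both lie above the other EpiSC groups.

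Some epithelial genes were lower in Wt1. Of 16 tested genes of surface ectoderm and epidermis, 7 were lower and 1 higher, with a median difference of -0.64; of 24 genes of the mesenchymal transition and of cadherins, 7 were lower and 5 higher, beside 4.82% and 5.74% of all genes. When any 1 array was left out, 5 of 8 and 9 of 12 calls stayed. Cldn7, a tight junction protein, read -0.55 and -0.66 in Wt1 and 3.92 and 4.14 in 129C1, a difference of -4.63 ± 0.15 (adjusted p = 9.16e-11). Cdh1, E-cadherin, the main adhesion molecule of epithelial epiblast, read 0.88 and 1.21 in Wt1 and 3.34 and 3.49 in 129C1, a difference of -2.37 ± 0.17 (adjusted p = 2.76e-07). The arrays of the lines did not overlap in either gene.

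Further epithelial genes were lower in Wt1. Esrp1, a splicing factor of epithelial cells, read 0.036 and 0.49 in Wt1 and 2.25 and 2.50 in 129C1, a difference of -2.11 ± 0.25, and a second probe gave -0.71. Grhl2, a transcription factor that maintains epithelial genes, differed by -1.12 ± 0.17, Cldn3 by -1.74 ± 0.26 and the keratin gene Krt19 by -2.82 ± 0.45. Sfn, a 14-3-3 protein of epidermis, differed by -1.73 ± 0.21. On the slide of Wt1 the differences from IWP2-treated 129C1 were -5.22 for Cldn7, -2.59 for Cdh1, -2.32 for Esrp1 and -1.91 for Grhl2. On the slide of 129C1 the same genes in 129C1 differed from the Wnt inhibitor lines by -0.64, -0.46, 0.027 and -1.05.

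The members higher in Wt1 were genes of mesenchymal cells. They were Zeb2 and Snai1, repressors of Cdh1, which differed by 1.94 ± 0.40 and 1.47 ± 0.33, the cadherin Cdh11 by 1.85 ± 0.55, and the matrix metalloproteases Mmp2 and Mmp14 by 1.56 ± 0.28 and 1.36 ± 0.25; these genes were chosen after their values were seen. Cdh11 lost its call without replicate 2 of Wt1 or either array of 129C1, and Mmp14 fell below 2-fold without replicate 2 of Wt1 (0.98). Of 28 tested collagens, laminins and integrins, 4 were higher in Wt1 and 0 lower, beside 5.74% and 4.82% of all genes. Of these 4, 2 stayed called when any 1 array was left out. Among them Lama4, a laminin of vessels and mesenchyme, differed by 1.48 ± 0.31 and Itgb3, an integrin subunit, by 2.22 ± 0.47. Itga1 was called at 1.38 ± 0.45, but its other probe had the opposite sign (-0.70), and it was no longer called without replicate 2 of Wt1 or either array of 129C1.

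**Figure D4:**
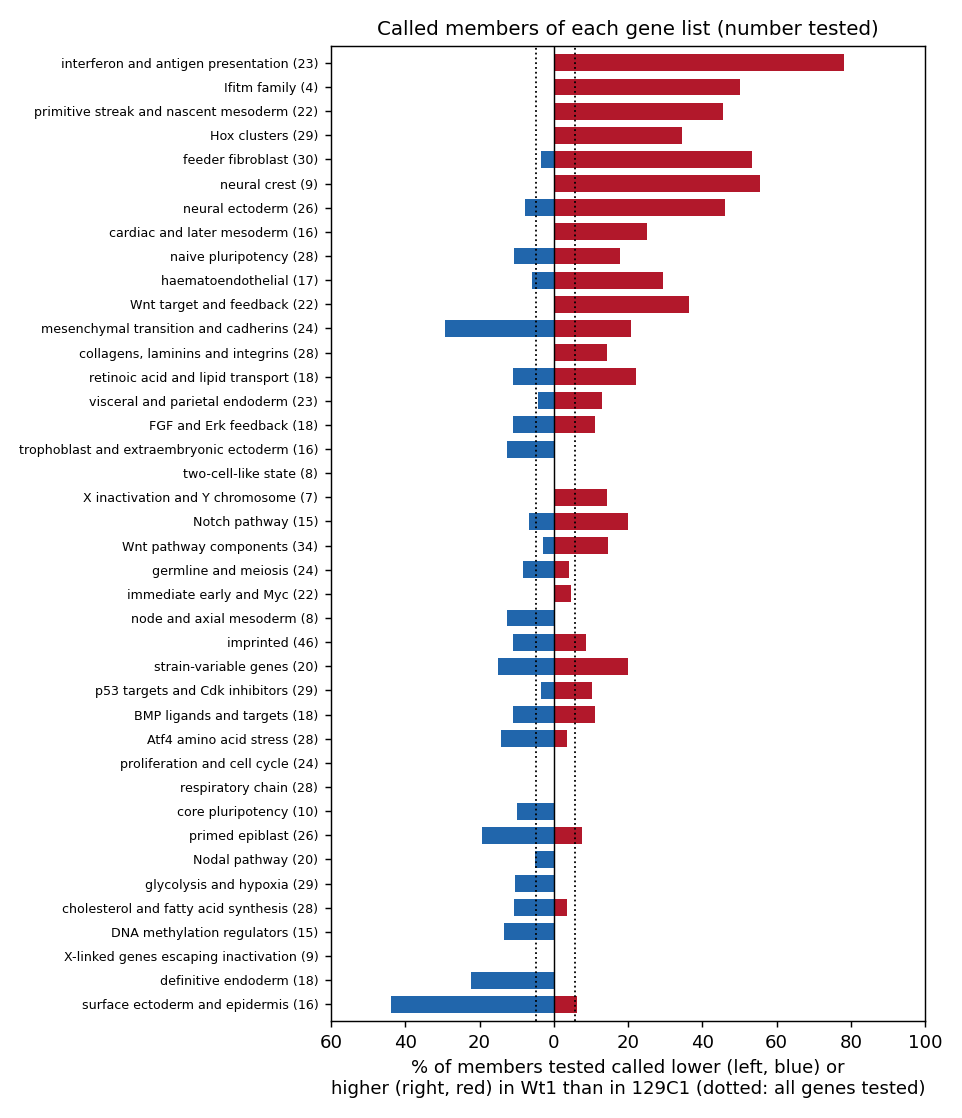
Share of tested members of each of 40 gene lists (number tested in brackets) called lower in Wt1 than in 129C1 (blue, left) or higher (red, right), ordered by the median difference of the list; dotted lines mark the shares over all genes tested, 4.82% and 5.74%. The interferon list has the largest share called higher (18 of 23) and the surface ectoderm list the largest share called lower (7 of 16), and the lists of proliferation and of the respiratory chain have no called member.

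Many streak and nascent mesoderm genes were higher in Wt1. Of 22 tested members, 10 were higher and 0 lower, with a median difference of 1.40, and 7 of them stayed called when any 1 array was left out; T, Fgf8 and Pdgfra, a growth factor receptor of mesoderm, did not. Pdgfra lost its call whichever of the 4 arrays was left out, at differences of 2.43 to 2.65. The summed level of the list was 149 to 163 in Wt1, 97.7 to 112 in 129C1 and 47.8 to 52.3 in IWP2-treated 129C1. On the slide of Wt1, 17 members were higher in Wt1 than in IWP2-treated 129C1 and 0 lower; on the slide of 129C1, 8 were higher in 129C1 than in the Wnt inhibitor lines and 3 lower.

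Ligands and secreted regulators of the streak were among the called members. Wnt3, the ligand needed to form the streak, read 0.27 and 0.75 in Wt1 and -1.11 and -1.17 in 129C1, a difference of 1.65 ± 0.27 (adjusted p = 0.000597). Fst, the secreted antagonist of Activin, read 3.72 and 3.90 in Wt1 and 1.29 and 1.18 in 129C1, a difference of 2.57 ± 0.33 (adjusted p = 7.21e-05). Fgf8, which drives cells out of the streak, read 5.33 and 5.39 in Wt1 and 4.26 and 4.08 in 129C1, a difference of 1.19 ± 0.29 (adjusted p = 0.00904). The lines did not overlap in any of these 3 genes; Fgf8 lost its call without replicate 2 of Wt1 (adjusted p = 0.0538) or replicate 2 of 129C1 (0.0760).

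Some transcription factors of the streak were near background in 129C1. Evx1, a homeobox factor of the posterior streak, read -1.31 and -0.30 in Wt1 and -5.20 and -5.77 in 129C1, with neither 129C1 array well above background, and was at least 9.57-fold higher in Wt1. Foxc1, a forkhead factor of mesoderm, was at least 7.65-fold higher. Its difference was 0.96 with normexp on the median signals, below 2-fold, and its call was lost there. Eomes, the T-box factor needed for endoderm and early mesoderm, read 2.59 and 3.51 in Wt1 and 2.65 and 2.60 in 129C1, with a difference of 0.42 ± 0.33 that did not pass (adjusted p = 0.421). Its arrays overlapped between the lines.

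Targets and feedback genes of Wnt signalling gave 8 of 22 members higher in Wt1 and 0 lower, with a median difference of 0.49, and all 8 stayed called when any 1 array was left out. Axin2, a negative feedback target of beta-catenin, read -1.76 and -1.98 in Wt1 and -4.11 and -5.49 in 129C1. Neither 129C1 array was well above background, and by this probe Axin2 was at least 4.58-fold higher in Wt1. A second probe of Axin2, well above background on both arrays of both lines, gave a smaller difference, 1.102, so the bound holds for the brightest probe only. With normexp on the median signals the difference of Axin2 was 0.675, below 2-fold, and its call was lost. Tnfrsf19, a receptor induced by Wnt, read 1.93 and 1.75 in Wt1 and -0.78 and -1.15 in 129C1, a difference of 2.80 ± 0.24 (adjusted p = 1.46e-06). Wnt11, a ligand and target, read -0.39 and -0.091 in Wt1 and -1.69 and -1.83 in 129C1, a difference of 1.52 ± 0.25. Sp8, a zinc finger factor, differed by 2.66 ± 0.32, and its other probe by 0.46.

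The pathway's own components gave 6 calls. Of 34 tested ligands, receptors, co-receptors, antagonists and transducers of Wnt signalling, 5 were higher in Wt1 and 1 lower, beside 5.74% and 4.82% of all genes, with a median difference of -0.019; 3 of the 6 stayed called when any 1 array was left out. Among ligands, Wnt8a read 2.16 and 2.28 in Wt1 and -1.48 and -2.12 in 129C1, a difference of 4.02 ± 0.70 (adjusted p = 0.000926). Among receptors, Fzd10 differed by 1.22 ± 0.21 and Fzd1 by 1.32 ± 0.29; Fzd1 lost its call without replicate 2 of Wt1 (adjusted p = 0.0713) or replicate 2 of 129C1 (0.0543). The secreted antagonist Sfrp5 was the member lower in Wt1. It read -0.33 and -0.46 in Wt1 and 3.86 and 3.38 in 129C1, a difference of -4.01 ± 0.72 (adjusted p = 0.00117).

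**Figure D5:**
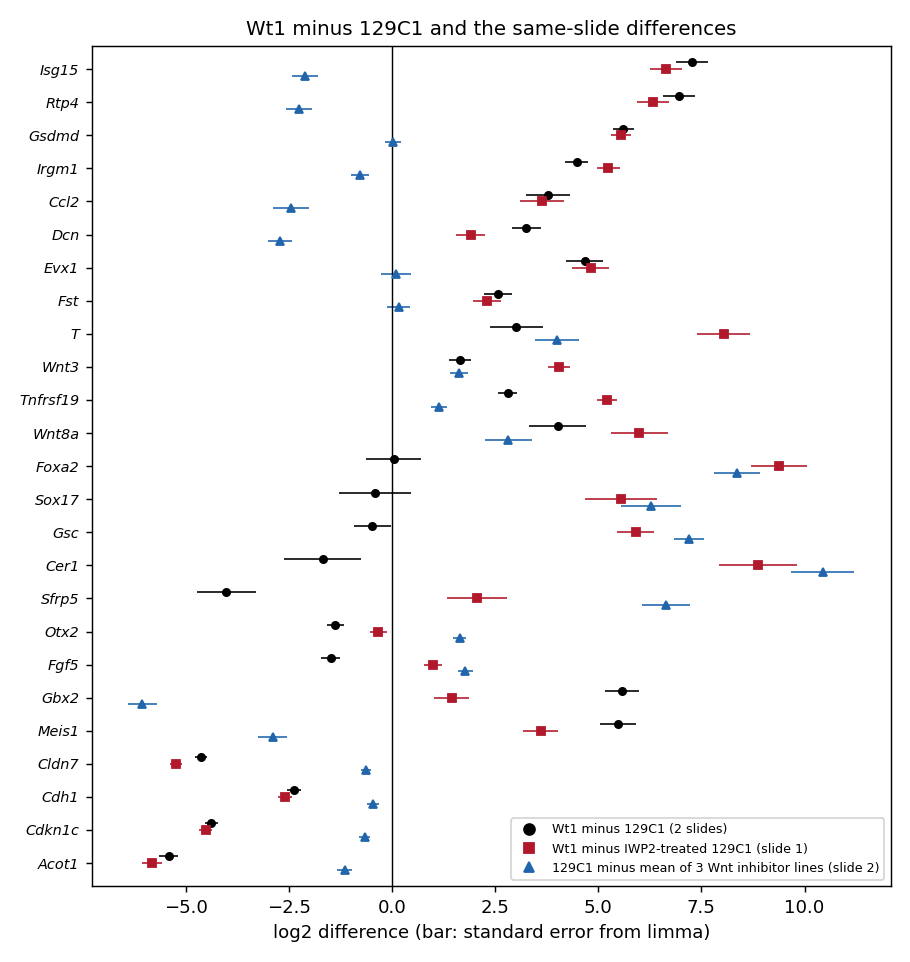
Log2 differences of 25 genes with their standard errors from limma: Wt1 minus 129C1 across 2 slides (circles), Wt1 minus IWP2-treated 129C1 on slide 1 (squares) and 129C1 minus the mean of 129Ba1, 129Ba2 and BNa17 on slide 2 (triangles). Foxa2, Sox17, Gsc and Cer1 lie near or below 0 between the untreated lines and far above 0 in both same-slide differences. Foxa2, Sox17 and Cer1 read near background in IWP2-treated 129C1 and the Wnt inhibitor lines, so the size of those differences is uncertain. Cldn7, Cdh1, Cdkn1c and Acot1 are below 0 in Wt1 in both comparisons that include it.

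Genes of definitive endoderm were mostly above background in both lines. Of 18 tested members, 16 were well above background on all 4 arrays, 0 were higher in Wt1 and 4 lower (4.82% of all genes were lower), with a median difference of -0.60. In the fit of the 4 arrays alone, 7 were lower. Sox17, a factor that specifies endoderm, read 0.85 and 1.11 in Wt1 and 1.55 and 1.23 in 129C1, a difference of -0.41 ± 0.88 (adjusted p = 0.799). Gsc, a homeobox gene of the organiser and a member of the streak list, read 2.52 and 3.52 in Wt1 and 3.65 and 3.34 in 129C1, a difference of -0.48 ± 0.45 (adjusted p = 0.517), which turned to 0.025 without replicate 1 of Wt1. Neither passed, and the arrays of Gsc overlapped.

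Cer1, a secreted antagonist of Nodal, BMP and Wnt, read 4.04 and 4.38 in Wt1 and 6.01 and 5.77 in 129C1. The lines did not overlap, but the difference of -1.68 ± 0.94 did not pass in the fit of all arrays (adjusted p = 0.244); in 4 of the alternatives it did, with values from -1.85 to -1.51 over all of them. The 4 members called were Sfrp5, Krt19, Otx2 and Trh. Otx2, a homeobox factor of epiblast and anterior endoderm, read 4.91 and 5.33 in Wt1 and 6.58 and 6.39 in 129C1, a difference of -1.37 ± 0.20 (adjusted p = 0.000222). Trh, a hormone precursor, differed by -1.47 ± 0.49 and lost its call when any 1 of the 4 arrays was left out (adjusted p up to 0.217).

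Of the 18 endoderm genes, 11 were higher in Wt1 than in IWP2-treated 129C1 and 1 lower, and 14 were higher in 129C1 than in the Wnt inhibitor lines and 0 lower. Foxa2 was higher in Wt1 than in IWP2-treated 129C1 by 9.38 and in 129C1 than in the Wnt inhibitor lines by 8.37. The same pair of values was 5.55 and 6.28 for Sox17 and 8.87 and 10.44 for Cer1. For T the pair was 8.04 and 4.01. In IWP2-treated 129C1 and in the Wnt inhibitor lines these genes read near background by their means. These values are differences of means and not bounds, so their size is uncertain.

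Single genes of other gastrulation pathways were called, to be read beside 5.74% of all genes called higher and 4.82% lower. Of 20 tested genes of the Nodal pathway, 0 were higher and 1 lower: Gdf3, a Nodal-related ligand, read 1.93 and 1.78 in Wt1 and 3.62 and 3.51 in 129C1, a difference of -1.71 ± 0.22 (adjusted p = 6.16e-05). Of 18 BMP ligands and targets, 2 were higher and 2 lower, and each of the 4 lost its call when some 1 array was left out. Bmp4, the ligand that induces posterior mesoderm, differed by 1.29 ± 0.29 (adjusted p = 0.00636), and lost its call without replicate 1 of Wt1 (1.18) or replicate 2 of 129C1 (1.19, adjusted p = 0.0594). Of 18 genes of FGF signalling, 2 were higher and 2 lower, among them Fgf5, given with the pluripotency genes, and 1 of the 4 stayed called when any 1 array was left out.

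Genes of later mesoderm, blood and vessels gave a few calls, to be read beside 5.74% of all genes called higher and 4.82% lower. Of 16 tested genes of heart and later mesoderm, 4 were higher in Wt1 and 0 lower. Meox1, a homeobox factor of somites, was at least 29.5-fold higher and kept its call when any 1 array was left out, while Isl1, Osr1 and Tbx1 each lost it in some case. Of 17 haematoendothelial genes, 5 were higher and 1 lower, and 3 of these 6 calls stayed when any 1 array was left out. Hbb-y, an embryonic globin, was at least 5.34-fold higher in Wt1, and the globin Hba-a1 read 0.65 and 0.068 in Wt1 and -2.49 and -3.22 in 129C1, a difference of 3.21 ± 0.40. Hbb-y lost its call with normexp on the median signals, at 0.97, below 2-fold. Globin genes have near-identical copies, so the signal of these probes may be shared. The endothelial markers Cdh5 and Tie1 were not well above background in either line.

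Several Hox genes, which pattern the body axis, were higher in Wt1. Of 29 tested Hox genes, 10 were higher and 0 lower, with a median difference of 1.25; 6 were higher without replicate 2 of 129C1, and 3 of the 29 were well above background on all 4 arrays. Hoxb1, a hindbrain factor that responds to retinoic acid, was at least 6.63-fold higher in Wt1, and Hoxb2 at least 19.6-fold. Meis1, a homeodomain partner of Hox proteins, read 3.05 and 2.81 in Wt1 and -2.44 and -2.67 in 129C1, a difference of 5.49 ± 0.43 (adjusted p = 7.92e-07).

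The Hox genes were also read within the slide of each line. From IWP2-treated 129C1, on its slide, Wt1 differed in Hoxb1 by 4.28 and in Hoxb2 by 2.40. On the slide of 129C1, 129C1 differed from the Wnt inhibitor lines by -0.42 for Hoxb1 and -3.78 for Hoxb2. Neither 129C1 array was well above background for Hoxb1 or Hoxb2. Hoxb1 also read near background in IWP2-treated 129C1 and in the Wnt inhibitor lines, so the size of these differences is uncertain. Over the list, 9 members were higher in Wt1 than in IWP2-treated 129C1 and 0 lower, and 0 were higher in 129C1 than in the Wnt inhibitor lines and 14 lower.

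Genes of retinoic acid handling and of lipid transport, read as 1 list, differed in both directions. Of 18 tested members, 4 were higher in Wt1 and 2 lower, beside 5.74% and 4.82% of all genes. Of these 6, 4 stayed called when any 1 array was left out. Crabp1 and Crabp2, intracellular carriers of retinoic acid, read 6.03 and 5.78 in Wt1 and 2.48 and 2.36 in 129C1 for Crabp1 and differed by 3.49 ± 0.37 and 2.35 ± 0.20. Aldh1a2, the enzyme that makes retinoic acid in the embryo, read 0.90 and -0.012 in Wt1 and -2.63 and -2.68 in 129C1, a difference of 3.10 ± 0.43 (adjusted p = 0.000128). The apolipoprotein gene Apoc1 was lower in Wt1, by a difference of -1.44 ± 0.28. The other member lower in Wt1, Rarb, lost its call when any 1 of the 4 arrays was left out.

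Several neural genes were higher in Wt1. Of 26 tested members, 12 were higher and 2 lower, with a median difference of 0.96. Gbx2, a factor of anterior hindbrain and of naive pluripotent cells, read 0.86 and 0.039 in Wt1 and -5.56 and -4.69 in 129C1, with neither 129C1 array well above background, and was at least 22.9-fold higher. Olig3 and Lhx5, factors of neural progenitors, were at least 21.0-fold and at least 13.9-fold higher. En2, of the midbrain and hindbrain boundary, read 0.085 and 0.23 in Wt1 and -1.98 and -2.25 in 129C1, a difference of 2.27 ± 0.16 (adjusted p = 2.33e-07).

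The members lower in Wt1 were the anterior genes Rax and Hesx1. Hesx1, a forebrain and pituitary factor, differed by -1.82 ± 0.40 and lost its call without replicate 1 of 129C1. Rax, the homeobox factor of the eye field, read -2.80 and -2.09 in Wt1 and 1.47 and 0.87 in 129C1 and was lower in Wt1 by a difference of -3.62 ± 0.47 (adjusted p = 7.21e-05). Of 9 tested neural crest genes, 5 were higher and 0 lower, and 3 of the 5 stayed called when any 1 array was left out. Among them Ngfr, the low-affinity neurotrophin receptor, differed by 2.53 ± 0.34, Pax3 by 2.57 ± 0.44 and Sox10 by 1.57 ± 0.30. Within the slide of Wt1, Olig3 differed from IWP2-treated 129C1 by 2.30 and Gbx2 by 1.45. On the slide of 129C1, the differences of 129C1 from the Wnt inhibitor lines were -3.36 and -6.05. Neither 129C1 array was well above background for Olig3 or Gbx2, so the size of the latter differences is uncertain.

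The core pluripotency factors Pou5f1, Sox2 and Nanog were not called. Pou5f1, the POU factor Oct4, read 5.36 and 5.65 in Wt1 and 5.96 and 5.75 in 129C1, a difference of -0.35 ± 0.32 (adjusted p = 0.493). Sox2 read 2.16 and 1.98 in Wt1 and 2.01 and 1.93 in 129C1, a difference of 0.095 ± 0.15 (adjusted p = 0.717), and Nanog differed by -0.23 ± 0.31 (adjusted p = 0.677). Of 10 tested core genes, 1 was called, beside 10.6% of all genes. It was Utf1, a chromatin factor of pluripotent cells, which read 4.57 and 5.02 in Wt1 and 6.41 and 6.41 in 129C1, a difference of -1.61 ± 0.22 (adjusted p = 0.000101).

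Some genes of the primed state were lower in Wt1. Of 26 tested members, 2 were higher and 5 lower, beside 5.74% and 4.82% of all genes, with a median difference of -0.30. All 26 were well above background on all 4 arrays, and 4 of the 7 calls stayed when any 1 array was left out. Fgf5, a growth factor that marks the epiblast after implantation, read 3.29 and 3.72 in Wt1 and 5.06 and 4.92 in 129C1, a difference of -1.49 ± 0.22 (adjusted p = 0.000260), with no overlap of the lines. Dnmt3b, the de novo DNA methyltransferase of epiblast, read 6.54 and 6.93 in Wt1 and 7.95 and 7.74 in 129C1, a difference of -1.11 ± 0.23, which fell below 2-fold without replicate 1 of Wt1 (-0.92). Of 15 tested regulators of DNA methylation, 2 were lower, Dnmt3b and the dioxygenase Tet1 (-1.26 ± 0.22). A second probe of Tet1 gave -0.55, and the other probes of Dnmt3b gave -0.92 and -0.86, each below 2-fold. With probes averaged, both genes lost their calls. Dnmt3b also lost its call with quantile normalization and with the replicate block in the fit of the 4 arrays.

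Genes of naive pluripotency differed in both directions. Of 28 tested members, 5 were higher in Wt1 and 3 lower, beside 5.74% and 4.82% of all genes. Of these 8, 5 stayed called when any 1 array was left out. Dppa5a, an RNA-binding protein of early embryos and embryonic stem cells, read -3.68 and -4.48 in Wt1 and 0.021 and -0.17 in 129C1, with neither Wt1 array well above background, and was at least 13.6-fold higher in 129C1. Nr5a2, a nuclear receptor that activates Pou5f1, was at least 5.70-fold higher in Wt1, and the adhesion gene Jam2 differed by 2.14 ± 0.17. Nr5a2 lost its call with normexp on the median signals, at 0.81, below 2-fold. Of 6 markers of embryonic stem cells, Klf4, Esrrb, Tfcp2l1, Zfp42 and Dppa3 were not called. The sixth, the nuclear receptor Nr0b1, was well above background on neither Wt1 array and at least 4.35-fold higher in 129C1 (adjusted p = 2.70e-05), a call kept when any 1 array was left out.

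Imprinted genes, expressed from 1 parental allele, gave some of the largest differences. Of 46 tested members, 4 were higher in Wt1 and 5 lower, beside 5.74% and 4.82% of all genes, with a median difference of -0.057. Cdkn1c, a cyclin-dependent kinase inhibitor expressed from the maternal allele, read -0.87 and -0.81 in Wt1 and 3.60 and 3.48 in 129C1, a difference of -4.38 ± 0.16 (adjusted p = 3.39e-10). Slc38a4, an amino acid transporter expressed from the paternal allele, read -3.65 and -3.44 in Wt1 and 1.35 and 1.18 in 129C1, a difference of -4.81 ± 0.18; 1 of 2 Wt1 arrays was well above background. Nnat, a paternally expressed membrane proteolipid, differed by -1.79 ± 0.21. Meg3, the maternally expressed noncoding RNA of the Dlk1 region, read 3.90 and 4.68 in Wt1 and 4.28 and 4.35 in 129C1, a difference of -0.023 ± 0.28 (adjusted p = 0.964), with both signs among its probes and alternatives.

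Cdkn1c and Slc38a4 were also lower in Wt1 than in IWP2-treated 129C1, by differences of -4.51 and -5.01. In 129C1 they differed from the Wnt inhibitor lines by -0.66 and 0.073. The imprinted gene Cobl was called lower in Wt1 (-1.08 ± 0.29), but its other probe gave 1.52 and the mean of its probes 0.22. It lost its call when any 1 of the 4 arrays was left out (adjusted p up to 0.0903).

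Among sex-linked genes, 1 of 7 tested genes of X inactivation and the Y chromosome was called, beside 10.6% of all genes. Xist, the noncoding RNA that silences an X chromosome, read -0.12 and 0.66 in Wt1 and 0.20 and 0.62 in 129C1, a difference of -0.14 ± 1.07 (adjusted p = 0.945), with overlapping arrays and a second probe of opposite sign. Of the Y-linked genes, Eif2s3y was well above background on 1 of 2 Wt1 arrays and neither 129C1 array, and Uty on 0 of the 4. Ddx3y was called at 1.76 ± 0.52, with 1 of 2 Wt1 arrays and neither 129C1 array well above background, and lost its call without replicate 2 of Wt1 (0.75) or either array of 129C1. Of 9 tested X-linked genes that escape inactivation, 0 were called.

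Other large differences lay outside the lists. Acot1, a cytosolic acyl-CoA thioesterase, read -1.66 and -1.73 in Wt1 and 3.70 and 3.74 in 129C1 and gave the largest fall of any called gene measured above background on both arrays of both lines, -5.41 ± 0.23 (adjusted p = 1.36e-09). Nefl, the light neurofilament chain, read 0.36 and 0.91 in Wt1 and 4.05 and 4.30 in 129C1, a difference of -3.54 ± 0.22. Poli, a translesion DNA polymerase, differed by -4.33 ± 0.50, with the Wt1 arrays far apart (-0.17 and -2.55). The remaining large differences in this direction were Prxl2a (-4.00 ± 0.20), Fbxo27, an F-box protein (-3.68 ± 0.20), Emid1 (-3.47 ± 0.29) and M1ap (-3.43 ± 0.28).

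Genes with no Wt1 array well above background were higher in 129C1 by a bound. Wdr86, a WD-repeat protein, read -3.60 and -4.86 in Wt1 and 3.63 and 3.64 in 129C1 and was at least 173-fold higher in 129C1. The bounds were 19.06-fold for Unc93a, 9.11-fold for the homeobox gene Alx1, 8.87-fold for Prex2, 8.35-fold for the pentraxin gene Nptx2 and 8.16-fold for Oxsm, an enzyme of mitochondrial fatty acid synthesis. Ankrd36 was at least 14.3-fold higher, but its 129C1 arrays stood at -2.57 and 2.29, and without replicate 2 of 129C1 it was no longer called. In the other direction, Nr1h5, a nuclear receptor, was at least 60.3-fold higher in Wt1 and the noncoding RNA Pantr1 at least 30.2-fold. Also high in Wt1 were Calr3, a calreticulin of testis (4.92 ± 0.43), and Sprr2a2, of the cornified envelope (4.61 ± 0.53), whose family has near-identical copies.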

How the data were processed

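Total RNA was hybridised to single-colour Agilent mouse arrays, and the deposited scanner files hold Feature Extraction intensities (version 10.5.1.1, per the submitters' processing notes). The processed signal is, per the file headers, the background-corrected intensity of a spot. The authors' deposited value table holds log2 values whose column medians ran from -0.351 to 0.781, with its centring not stated; it served as an alternative. Samples were grouped by title. Here the 75th percentile of each array was subtracted from its log2 processed signals, control spots and flagged outliers were left out, spots of a probe were averaged, and the brightest probe stood for a gene. Of 55681 probes, 27235 had a gene name through RefSeq, for 20660 genes. The 15090 genes that 1 or more of the 12 groups showed well above background on both its arrays were tested with lmFit and eBayes (limma 3.58.1, R 4.3.3), two-sided, with Benjamini-Hochberg adjustment; genes dim in every group were left out. The 75th percentile was 152 to 215 on the 4 arrays compared, where 43.3% to 50.5% of probes were well above background; 2 arrays a line limit the precision. On simulated data for 15090 genes, 72% of 100 genes changed by 1.5 log2 units and 96% of those changed by 3 were called, with 8 false calls. The simulated noise was independent between genes and arrays and held no slide effect. It therefore checks the fit and does not give the rate of false calls between these lines.

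Genes named are those with the largest called differences well above background on all 4 arrays, the largest bounds, and called or defining members of the gene lists. Among the genes that the rule names, 1 is not reported here. The members and lists were chosen with earlier results of these data known. Alternatives were other background correction, normalization, filters, probe rules, fits and left-out arrays.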

Additional observations from a re-analysis of the deposited data

How the results depend on the processing

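With normexp on the median signals and its offset of 50 signal units, 768 genes were called, 454 higher in Wt1 and 314 lower. There 6 Hox genes were higher, and Uty and Meg3 read -0.024 and 0.090. The cause was not tested. Wnt11, Grhl2 and Sox10, among others, also fell below 2-fold in this setting, at 0.90, -0.92 and 0.80. This setting and the fit without replicate 1 of BNa17 were chosen after seeing the data. Quantile normalization gave -0.021 for Uty and 0.034 for Meg3. Testing only genes above background on all 4 arrays left 477 genes lower and 1 Hox gene higher, since fewer genes were tested. The mean of all probes gave 0.22 for Cobl, 0.015 for Xist and 0.26 for Meg3. The fit of the 4 arrays gave 7 endoderm genes lower, and the fit of the 12 EpiSC arrays 6 Hox genes higher. With no fold minimum, 2835 genes passed, 1322 higher and 1513 lower. Leaving out 1 array gave 1140 to 1400 calls, 586 to 749 higher and 554 to 654 lower. The ranges were 6 to 13 for feeder genes higher, 6 to 14 for Hox genes higher, 2.20 to 3.83 for T, 0.84 to 2.64 for Mixl1 and -0.39 to 0.47 for Foxa2. Signs turned in uncalled genes: over the left-out arrays Gsc ran from -0.98 to 0.025, Eomes from -0.033 to 0.88, Xist from -0.53 to 0.25, Uty from -0.39 to 0.63 and Meg3 from -0.41 to 0.37. Interferon genes higher ranged from 12 to 19 over the other alternatives and Wnt targets higher from 6 to 9. The replicate numbers of Wt1 and 129C1 share only a number (correlation of deviations 0.0226 over 2 pairs); with the replicate block 1459 genes were called in the fit of the 4 arrays and 1606 in that of all 24. The planned normexp on mean signals was not run, because that signal was not used here. Genes near background in 1 line have only bounds.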

Other observations

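Genes of metabolism and stress were not among the comparisons above. Their counts stand beside 5.74% of all genes called higher in Wt1 and 4.82% lower. Of 28 tested genes of cholesterol and fatty acid synthesis, 1 was higher in Wt1 and 3 lower, and 2 of the 4 stayed called when any 1 of the 4 arrays was left out. Against IWP2-treated 129C1, on the slide of Wt1, 1 was higher and 10 lower. Between the untreated lines the member higher was Insig1, a sterol sensor that holds back cholesterol synthesis; it read 0.015 and -0.43 in Wt1 and -3.12 and -3.81 in 129C1, a difference of 3.26 ± 0.23 (adjusted p = 2.49e-07, limma). Of 28 genes induced by Atf4 under amino acid shortage, 1 was higher and 4 lower, and 4 of the 5 stayed. Among these Stc2, a secreted glycoprotein, differed by -2.11 ± 0.24 and Slc7a3, a cationic amino acid transporter, by -1.71 ± 0.17. Of 29 genes of glycolysis and hypoxia, 0 were higher and 3 lower, and 1 of the 3 stayed. Of 15 Notch pathway genes, 3 were higher and 1 lower. The receptor Notch3 differed by -1.32 ± 0.28 and stayed called, while Dll1, Dll3 and Nrarp, higher in Wt1, each lost the call when some 1 array was left out.

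Of 24 tested genes of proliferation and of 28 of the respiratory chain, 0 were called. Of 29 p53 targets and Cdk inhibitors, 3 were higher in Wt1 and 1, Cdkn1c, lower, and 2 of the 4 stayed called when any 1 array was left out. Of 24 germline genes, 1 was higher and 2 lower, with 2 of the 3 staying called, and of 8 genes of the 2-cell-like state, 0 were called. Of 23 genes of visceral and parietal endoderm, 3 were higher and 1 lower, and of 16 trophoblast genes, 0 were higher and 2 lower; every one of these 6 calls was lost when some 1 array was left out.

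Probes with no RefSeq gene name were tested with the same model and calling rule, but in a separate fit with its own adjustment. Each such probe was tested, whereas a named gene was read by its brightest probe, so the shares are not like for like. Among 6094 tested probes named by a genomic interval, 125 were higher in Wt1 and 146 lower (4.45% called). Among 5774 other unnamed probes, 153 were higher and 166 lower (5.52%), beside 10.6% of named genes. The 10 spike-in controls, which do not depend on the cells, differed between the lines by -0.42 to 0.075 after scaling, with a median of -0.29.

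The 866 genes called higher in Wt1 had a median level of -0.019 in Wt1 and -2.09 in 129C1, and of -1.85 in IWP2-treated 129C1, -0.93 in 129Ba1, -1.31 in 129Ba2 and -1.32 in BNa17. The 727 genes called lower had a median level of -1.47 in Wt1 and 0.32 in 129C1, and of 0.20 in IWP2-treated 129C1, -0.39 in 129Ba1, -0.050 in 129Ba2 and -0.20 in BNa17. The genes were chosen on the arrays of Wt1 and 129C1, so those medians are a description.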
